A study of Oryza sativa with 4 samples.

Results

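salT (LOC4326471), BURP17 (LOC4349896) and OsMT1a (LOC4351213, MT1a below) are 3 rice genes that were selected on measured values: their log2 intensity was lower on the ago2-1 array than on the WT array in 2013 and higher in 2014. The platform's annotation ties 4 probe sets to these genes alone, a pair for salT and 1 each for BURP17 and MT1a, out of 57194 probe sets and 17905 genes. They were measured in young panicles (Oryza sativa) before stage 5 from plants in the field under normal conditions, on Affymetrix rice arrays. The arrays labelled ago2-1 come from plants that carry OsAGO2 in antisense (argonautes bind small RNAs and silence their targets), and the WT arrays from the cultivar ZH11, with no further treatment in either. Both genotypes have 1 array from 2013 and 1 from 2014, so there are 4 arrays, 2 per genotype, and 1 per genotype within a year. How many plants and how many independent lines an array stands for is not stated in the labels.

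The genes belong to unrelated families that are known for responses to the environment. salT encodes a small mannose-binding lectin of the jacalin type, first described as a transcript that accumulates in rice under salt and drought. BURP proteins are a plant-specific family that shares a C-terminal domain with conserved cysteine and histidine residues, and the family's Arabidopsis member RD22 is induced by drought and abscisic acid. Metallothioneins are small cysteine-rich proteins that bind zinc, copper and cadmium and can scavenge reactive oxygen, and MT1a is a type 1 member.

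The values are probe set intensities, given below as log2. The median of all probe sets was 4.85 and 4.86 log2 on the ago2-1 and WT arrays of 2013 and 5.50 on each array of 2014. The years thus lie on different scales. The size of a difference between them is given as percentiles of each array or after quantile scaling, unless another scale is named. Quantile scaling gives all 4 arrays 1 distribution, whereas a difference between the years on the deposited scale also holds the shift of the whole arrays. Where the highest or lowest of the 4 arrays is named, it was the same one on the deposited and the quantile scale. AGO2 (LOC4336991), the targeted gene, did not show a lower level where the label is ago2-1: it lay at 9.62 log2 in ago2-1 against 9.54 in WT panicles in 2013, and at 10.98 in ago2-1 against 10.53 in WT panicles in 2014. Directions below are therefore those of the labels. The 15 names of young panicle genes (floral MADS-box genes, DL and OSH1) matched 16 measured genes, each above the median of every array and at percentile 68.8 or higher. Of 5 green leaf names 3 were measured (RBCS, PSAH and RCA). Their summed intensity was 1265 in ago2-1 against 1143 in WT panicles in 2013, and 5626 in ago2-1 against 6437 in WT panicles in 2014.

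salT was the gene with the widest swing. Its brighter probe set had an intensity of 167 in ago2-1 against 1078 in WT panicles in 2013, and of 169 in ago2-1 against 21.8 in WT panicles in 2014. On the log2 scale these are 7.38 in ago2-1 against 10.07 in WT panicles in 2013, and 7.40 in ago2-1 against 4.45 in WT panicles in 2014. The 2013 WT array was the highest and that of 2014 the lowest, with both ago2-1 arrays between them. salT was thus 6.47-fold lower on the ago2-1 array in 2013 (−2.69 log2) and 7.75-fold higher on it in 2014 (2.95 log2). These differences chose the gene, rest on 1 array per genotype and year, and are given as a description with no test.

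The other probe set of salT gave the same order. Its log2 intensity was 7.09 in ago2-1 against 9.38 in WT panicles in 2013, and 7.37 in ago2-1 against 5.21 in WT panicles in 2014. Its differences of −2.29 in 2013 and 2.16 in 2014 were smaller in size than those of the brighter one. The probe set names carry the suffix _a_at for the brighter and _x_at for the other, and an _x_at probe set can share probes with other transcripts. Both read the same 4 RNA samples, so they are no replicates of each other.

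BURP17 was the dimmest of the 3 genes by mean level. Its log2 intensity was 5.54 in ago2-1 against 7.77 in WT panicles in 2013, and 6.39 in ago2-1 against 4.53 in WT panicles in 2014. It lay 4.71-fold lower on the ago2-1 array in 2013 (−2.24 log2) and 3.63-fold higher in 2014 (1.86 log2). The WT arrays were again at the 2 ends, and the 2014 WT array held the lowest value.

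MT1a had the smallest swing. Its log2 intensity was 6.71 in ago2-1 against 8.45 in WT panicles in 2013, and 6.28 in ago2-1 against 4.84 in WT panicles in 2014. The gene lay 3.33-fold lower on the ago2-1 array in 2013 (−1.74 log2) and 2.72-fold higher in 2014 (1.45 log2). Its ago2-1 arrays also lay between the WT arrays.

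**Figure D1:**
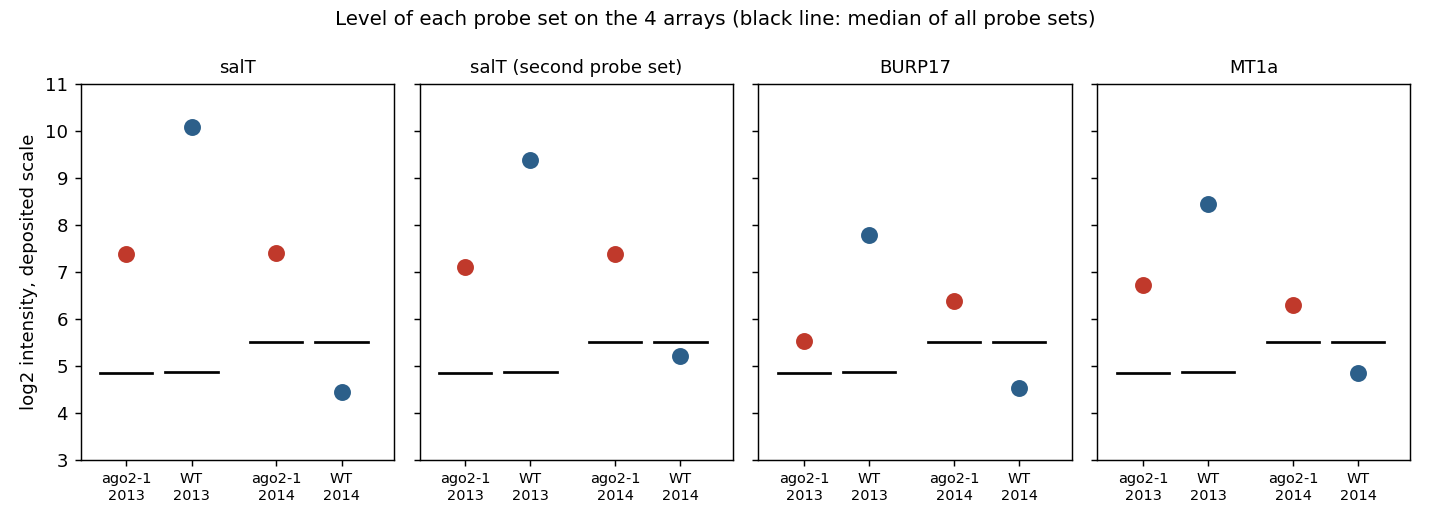
Log2 intensity (deposited scale, vertical axis) of the 4 probe sets of salT, BURP17 and MT1a on each array, ago2-1 in red and WT in blue, 1 point per array; black lines mark the median of all probe sets on that array. In every panel the 2013 WT array is highest and the 2014 WT array is lowest, below that array's median of 5.50.

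Read as percentiles of all probe sets on the same array, which need no scaling between the years, the 2013 WT array was again the highest and the 2014 WT array the lowest for each gene. The ago2-1 arrays of salT, nearly level on the log2 scale, stood lower in 2014 as percentiles. salT stood at percentile 73.0 in ago2-1 against 93.2 in WT panicles in 2013, and at 68.4 in ago2-1 against 33.1 in WT panicles in 2014. BURP17 stood at percentile 57.6 in ago2-1 against 76.2 in WT panicles in 2013, and at 60.0 in ago2-1 against 34.4 in WT panicles in 2014. MT1a stood at percentile 67.8 in ago2-1 against 81.8 in WT panicles in 2013, and at 59.0 in ago2-1 against 39.7 in WT panicles in 2014. All 4 probe sets were below the middle of the 2014 WT array. No measure of background was used here, so whether the transcripts were detected on that array is not settled, and the size of every difference that uses it, within 2014 or between the WT arrays, is uncertain. In whole panicles, fewer cells that express a gene and less of its RNA per cell cannot be told apart.

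Of all 57194 probe sets, 910 (1.59%) were at least 2-fold lower on the ago2-1 array in 2013 and 207 (0.362%) at least 2-fold higher on it in 2014. Both held for 19 probe sets (0.0332%), among them all 4 of salT, BURP17 and MT1a. The choice of the genes fixed the signs of these 4 and favoured their place among the 19. The reverse order, higher in 2013 and lower in 2014, was found for 1 probe set (0.00175%). By the difference of 2014 minus that of 2013, the salT probe sets ranked 4 (5.65 log2) and 15 (4.45), BURP17 ranked 24 (4.09) and MT1a ranked 58 (3.18) among all probe sets. The other 15 of the 19 had a median difference of 1.22 in 2014, and 2 of them exceeded the 1.45 of MT1a, the lowest of the 4. In 2013, by contrast, 6 of the 15 lay farther below WT than salT, down to −5.68. The SD of the differences over all probe sets was 0.41 in 2013 and 0.28 in 2014. A pair of regulators were among the 15: the DREB1A gene LOC4347620, a cold and drought response factor, differed by −1.44 in 2013 and 1.97 in 2014, and the WRKY71 gene LOC4328512 by −3.06 and 1.32. Another probe set of the WRKY71 gene was not among the 19.

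**Figure D2:**
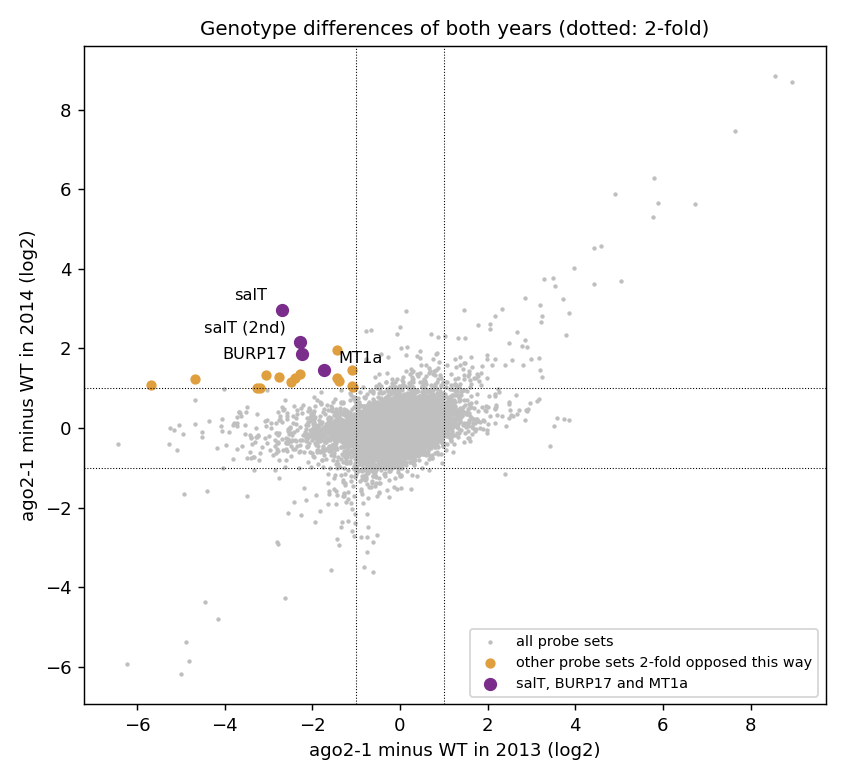
Difference between the ago2-1 and WT arrays (log2) in 2013 on the horizontal and in 2014 on the vertical axis, 1 point per probe set; purple marks salT, BURP17 and MT1a, orange the other 15 probe sets at least 2-fold lower in 2013 and higher in 2014. salT lies highest of the 19, at −2.69 and 2.95, and the dotted lines mark 2-fold.

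The opposed differences can also be read as unequal differences between the years, 2014 minus 2013, after quantile scaling. salT differed by −0.60 log2 between the ago2-1 arrays and by −6.27 between the WT arrays, or 77.1-fold lower in the WT panicles of 2014 by measured intensity. Its second probe set differed by −0.33 between the ago2-1 arrays and −4.80 between the WT arrays. For BURP17 the difference was 0.24 between the ago2-1 arrays and −3.93 between the WT arrays, or 15.2-fold lower in WT. MT1a differed by −1.03 between the ago2-1 arrays and −4.28 between the WT arrays, or 19.5-fold lower in WT. These folds and their ranks rest on the dim values of the 2014 WT array and share their uncertainty. The difference between the WT arrays was the larger in size for all 4 probe sets. Among all probe sets the difference of salT between the WT arrays ranked 3 from the lowest, with MT1a at rank 50 and BURP17 at rank 67. The choice of the genes fixes that the difference between the WT arrays lies below that between the ago2-1 arrays. These differences and ranks are therefore a description. Over all probe sets the differences had a median of 0.00 and an SD of 0.54 between the ago2-1 arrays, and a median of 0.03 and an SD of 0.61 between the WT arrays.

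In the order of levels after quantile scaling, the 2013 WT array lay above and that of 2014 below both ago2-1 arrays for 4866 probe sets (8.51%), and for all 4 probe sets of the 3 genes. The choice of the genes favours this order: 10 of the other 15 opposed probe sets had it too, so nothing is read from that share. A level at least 2-fold lower in 2014 was found between the ago2-1 arrays for 2.91% and between the WT arrays for 4.13% of all probe sets.

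The mean change over both genotypes was tested with limma across all probe sets, with genotype as a term. It was not used to choose the genes, but its residual is the difference between the genotypes' changes, which was, so these tests are affected by the choice. MT1a was lower in 2014, at 5.24 log2 on average against 7.90 in 2013 (−2.66, SE 0.70, adjusted p = 0.048). salT averaged 5.60 in 2014 and 9.03 in 2013 (−3.43, SE 1.22), which did not pass (adjusted p = 0.095, 95% interval −6.48 to −0.38). BURP17 averaged 5.13 in 2014 and 6.97 in 2013 (−1.84, SE 0.90), which did not pass either (adjusted p = 0.18, interval −4.09 to 0.41). Of all probe sets 11.1% were called lower in 2014 and 12.2% higher, so 1 call among 3 genes is set against a wide background. The call of MT1a ended without the 2013 WT array (−1.78, adjusted p = 0.13), without the 2014 WT array (−1.91, 0.28) and without the 2014 ago2-1 array (−3.40, 0.18), each with no genotype term. Year, season and array batch are 1 factor here and cannot be told apart. When 1 of the 2014 arrays was left out, limma called 0 of all probe sets between the years (12507 without ago2-1 and 12670 without WT at an unadjusted p under 0.05), so no call between the years given below held then. The green leaf genes RBCS (2.40, adjusted p = 0.0020), PSAH (1.59, 0.0038) and RCA (0.96, 0.014) were called higher in 2014 after quantile scaling, and their part in these results was not tested.

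**Figure D3:**
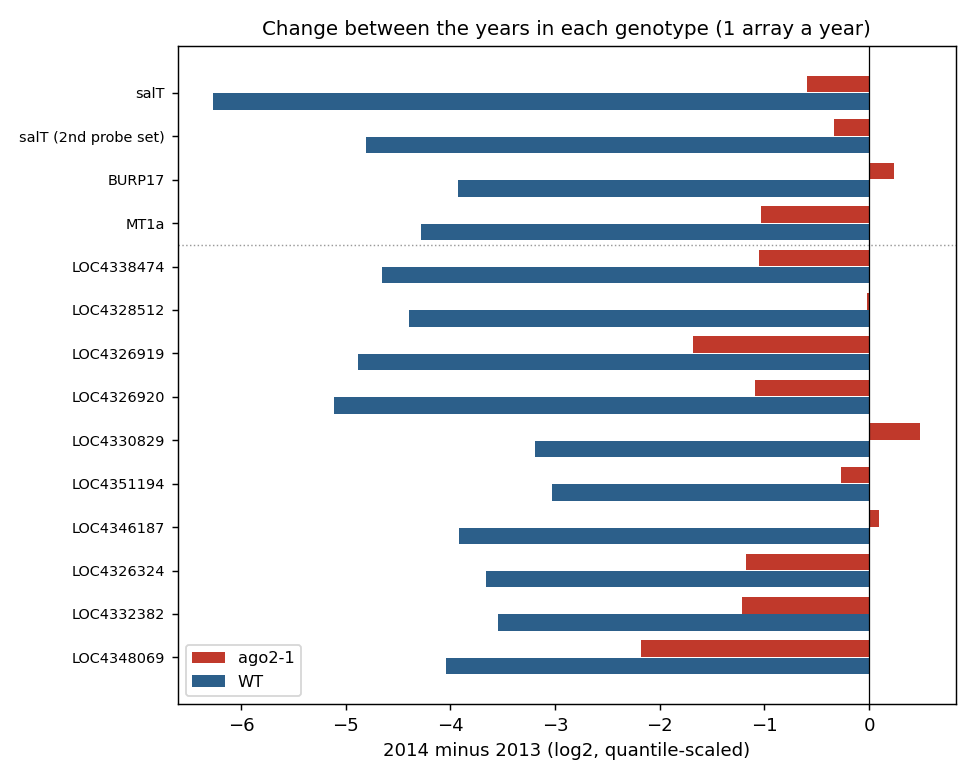
Change from 2013 to 2014 (log2 after quantile scaling, horizontal axis) between the ago2-1 arrays (red) and between the WT arrays (blue), 1 array a year; the first 4 rows are the probe sets of salT, BURP17 and MT1a and those under the dotted line are the genes of most similar pattern. salT has −0.60 in ago2-1 and −6.27 in WT, and every bar pair has its longer bar in WT, which the choice of these genes favours.

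Genes of most similar pattern were found by the root mean square difference between profiles over the 4 arrays, after quantile scaling and with each profile centred on its own mean, among 15198 other genes with a mean log2 of at least 5. With 4 arrays this is a description. Nearest to salT were LOC4338474 (0.72 log2, against a median of 2.24 over all these genes), the WRKY71 gene LOC4328512 (0.86), LOC4326919 (0.88) and LOC4326920 (0.93). The WRKY71 gene is given by its probe set with the highest mean, and its other probe set was not among the 2-fold opposed ones. BURP17 was nearest to LOC4330829 (0.34, against a median of 1.41), LOC4351194 (0.37), LOC4328512 (0.39) and LOC4346187 (0.43). LOC4351194 carries the name RIXI, that of a xylanase inhibitor, and LOC4346187 the name CPK21, that of a calcium-dependent protein kinase. MT1a was nearest to LOC4338474 (0.29, against a median of 1.57), the glutaredoxin gene GRXS5 (LOC4326324, 0.36), LOC4332382 (0.44) and LOC4348069 (0.44). Between the 3 genes themselves the measure was 0.90 for salT and BURP17, 0.73 for salT and MT1a, and 0.47 for BURP17 and MT1a. LOC4338474 was the nearest gene to both salT and MT1a: its log2 intensity was 9.37 in ago2-1 against 11.84 in WT panicles in 2013, and 8.94 in ago2-1 against 7.79 in WT panicles in 2014. Unlike the 3 genes it was bright on the 2014 WT array, and its level there was still the lowest of the 4.

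The other members of the BURP family were measured for 6 genes. RAFTIN1 (LOC4345929, BURP13), a tapetal protein needed for pollen development, lay at 6.88 log2 in ago2-1 against 9.02 in WT panicles in 2013, and at 6.67 in ago2-1 against 8.47 in WT panicles in 2014. It was thus lower on both ago2-1 arrays, unlike BURP17. It did not pass the limma fit of the genotypes on all 4 arrays (adjusted p = 1), where 0.0507% of all probe sets did, and passed with year as a block (adjusted p = 0.029), where 0.107% did. The fit without a block counts the difference between the years as spread. Genes that did not pass it, here or below, are not shown to be equal between the genotypes. The remaining 5 BURP genes differed by no more than 0.41 in size in either year. BURP3 (LOC4324159), the brightest, lay at 12.36 in ago2-1 against 12.35 in WT panicles in 2013, and at 12.51 in ago2-1 against 12.78 in WT panicles in 2014. Between the years 12.2% of all probe sets were called higher in 2014 by limma and 11.1% lower. RAFTIN1 was called lower (−0.99, SE 0.14, adjusted p = 0.012) and BURP12 (LOC4345440) higher (0.83, SE 0.14, adjusted p = 0.018), while the other 4 BURP genes did not pass. Without either array of 2013 the call of RAFTIN1 was lost and that of BURP12 kept, in fits with no genotype term. Without the WT one RAFTIN1 lay at 0.08. That fit sets the 2013 ago2-1 array against both arrays of 2014, so the difference between the genotypes enters it. After quantile scaling RAFTIN1 differed by −0.81 between the ago2-1 arrays and by −1.16 between the WT arrays. None of the 6 was at least 2-fold lower in 2013 and higher in 2014.

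Among metallothioneins 6 other genes were measured, and 1 of them, the other type 1 gene MT1B (LOC4332487), had differences of the same signs as MT1a. Of all 17905 genes 2762 had these signs. MT1B lay at 5.94 log2 in ago2-1 against 6.74 in WT panicles in 2013, and at 5.93 in ago2-1 against 5.63 in WT panicles in 2014. Its differences of −0.79 and 0.30 were smaller in size than those of MT1a. Like MT1a it was called lower in 2014 (−1.19, SE 0.27, adjusted p = 0.033), with a difference of −0.63 between the ago2-1 arrays and −1.75 between the WT arrays. By the probe set with the highest mean, the type 2 genes were bright. MT2C (LOC4337596) was the brightest probe set on every array, where a difference may not be measurable, so its 0.01 in 2013 and 0.02 in 2014 do not show equal levels. MT2B (LOC4326409) differed by 0.04 and 0.16, and MT2A (LOC4325218) by −0.02 and −0.37. A dim probe set of MT2A, at 2.37 to 3.27 log2, had the signs of MT1a, with −0.83 in 2013 and 0.36 in 2014. The other probe sets of MT2A were not higher in ago2-1 in either year. Among those of MT2C the signs varied, at no more than 0.13 in size. The type 4 genes MT4A and MT4C were dim, at most 4.94 log2 on any array. No metallothionein passed the fit of the genotypes, in which none of the 6 had an unadjusted p under 0.05. With year as a block none of the 6 passed either. No gene of the list other than the type 1 pair passed between the years, where 12.2% of all probe sets were called higher and 11.1% lower.

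The dehydrin and late embryogenesis abundant (LEA) genes, whose proteins protect cells during water loss and many of which respond to abscisic acid, lay the other way in 2013. Of 8 measured genes 5 were at least 2-fold higher on the 2013 ago2-1 array, where 0.741% of all probe sets were, and the median difference was 1.40 in 2013 and 0.25 in 2014, against 0.03 and 0.00 over all genes. RAB16C (LOC4350452) lay at 9.71 in ago2-1 against 7.12 in WT panicles in 2013, and at 8.81 in ago2-1 against 8.50 in WT panicles in 2014. RAB21 (LOC4350454) lay at 9.47 in ago2-1 against 6.99 in WT panicles in 2013, and at 9.95 in ago2-1 against 9.28 in WT panicles in 2014. The LEA gene EM differed by 2.0 in 2013 and 0.10 in 2014, RAB16B by 1.63 and 0.81, and rab25 by 1.17 and 0.07. LEA19 (0.37) and Dhn1 (0.03) did not reach 2-fold in 2013. RAB16B, RAB16C and RAB21 have consecutive gene numbers and may not count as separate cases. All 5 rest on the same pair of 2013 arrays. For the dehydrins that stood apart, the 2013 WT array was thus the lowest of its year, whereas it was the highest of all for salT, BURP17 and MT1a. RAB16D (LOC4350451) was the 1 gene of the list with differences of the signs of salT, at −0.21 and 0.23, where 2762 of all 17905 genes had these signs. None of the 8 passed the limma fit of the genotypes over all probe sets (2 at an unadjusted p under 0.05), and none passed with year as a block. The share of all probe sets under that unadjusted limit is not given here, so nothing is read from the 2. Between the years LEA19 (0.72, adjusted p = 0.022) and Dhn1 (0.56, 0.034) rose and RAB16D fell by 0.72 (0.029), where 12.2% of all probe sets were called higher and 11.1% lower. None of these 3 was called without the 2013 WT array.

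**Figure D4:**
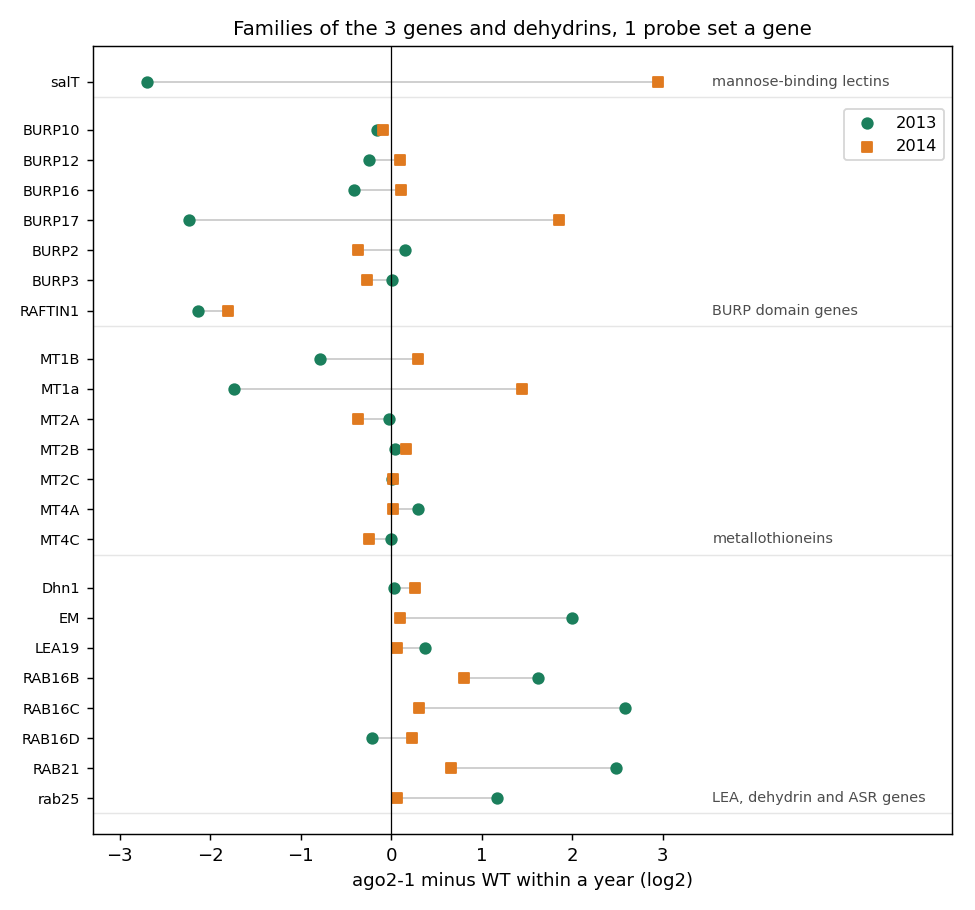
Difference between the ago2-1 and WT arrays (log2, horizontal axis) in 2013 (green circles) and in 2014 (orange squares) for salT, for BURP genes, metallothioneins and dehydrin or LEA genes, 1 probe set and 1 array per genotype and year. BURP17 and MT1a span from −2.24 to 1.86 and from −1.74 to 1.45, whereas 5 dehydrin or LEA genes lie above 1 in 2013.

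Other genes of salt and osmotic stress were measured for 15 names, and 5 of them had the signs of the 3 genes, whatever the size. Of all 17905 genes 2762 had these signs. NAC6 (LOC4325006), a stress-response transcription factor, came closest, with 7.60 log2 in ago2-1 against 8.45 in WT panicles in 2013, and 8.10 in ago2-1 against 7.08 in WT panicles in 2014. Its differences were −0.85 and 1.02, and none of the 15 reached 2-fold in both years in these directions. NAC5 (LOC4349963) differed by −0.02 in 2013 and 1.07 in 2014. MYB2 (LOC4332651) and the trehalose phosphatase gene TPP1 (LOC4330221) were far below WT in 2013 but not above it in 2014. TPP1 differed by −3.81 and −0.78. MYB2 lay at 1.45 log2 in ago2-1 against 6.39 in WT panicles in 2013, and at 2.66 in ago2-1 against 2.81 in WT panicles in 2014. Its 3 low values are close to the dimmest of their arrays (0.98 to 2.13 log2), so the size of its difference in 2013 and its lack of one in 2014 are not settled. The sodium transporter HKT8 (LOC4327757) differed by 0.16 and −0.14, and the proline synthesis gene P5CS1 by 0.16 and 0.13. None passed the fit of the genotypes, either without a block (2 at an unadjusted p under 0.05) or with year as a block. Nothing is read from the 2, since the share of all probe sets under that limit is not given. Without the 2014 WT array, the difference of ago2-1 from WT was −3.50 for TPP1 and −4.34 for MYB2. WT then has no replicate, only the array of 2013, so these sizes are a description. Between the years NAC5 (1.35, adjusted p = 0.024), the TPP2 gene of trehalose synthesis (0.97, 0.025) and P5CS1 (0.56, 0.030) rose, BADH2 fell by 0.50 (0.045), and 11 did not pass, where 12.2% of all probe sets were higher and 11.1% lower. TPP2 alone was called without the 2013 WT array, and BADH2 lay at 0.10 on the deposited scale.

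Genes of metal transport and chelation were set beside MT1a. Of 45 measured genes 16 had the signs of MT1a, against 2762 of all 17905 genes, but none was 2-fold apart in both years. Their differences ran from −1.33 to 0.69 in 2013 and from −0.83 to 0.44 in 2014, so none reached the size of MT1a in either year. None passed the limma fit of the genotypes, either without a block (0 at an unadjusted p under 0.05) or with year as a block. Between the years 6 were called higher and 10 lower in 2014, against 12.2% and 11.1% of all probe sets. Without the 2013 WT array 7 of these 16 calls were left. Of the YSL family of metal chelate transporters, YSL12 fell by 2.09 (adjusted p = 0.0088), YSL13 fell by 1.13 (0.023) and YSL15 rose by 1.65 (0.0047), while VIT2, a vacuolar iron transporter, fell by 1.15 (0.0073).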

How the data were processed

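The authors deposited probe set intensities on a linear scale. Per the submitters' processing notes RMA was used, its version and any other step being not given in the sources used here; log2 was taken with no pseudocount. Sorted values of the arrays of 2014 lay a median of 0.65 log2 above those of 2013, and those of a year differed by 0.12 at most. Genes came from the platform's annotation (22436 probe sets with 1 gene, 95 with several and 34663 with none listed) and names from RefSeq assembly ASM3414082v1. A gene is given by its probe set with the highest mean.

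The 3 genes and the 6 lists of related genes were chosen with earlier results of these data known. The list of mannose-binding lectins reached salT alone, and 2 unrelated genes that share a name with a list member (a tripeptidyl peptidase also named TPP2, and another tom1) were left out. limma 3.58.1 in R 4.3.3 (lmFit and eBayes, Benjamini-Hochberg over all probe sets, threshold 0.05) tested 2014 against 2013 after quantile scaling with genotype as a term (1 residual and 4.48 prior degrees of freedom), and ago2-1 against WT on the deposited scale without a block (2 and 40.3). The titles' years pair the arrays; deviations from the genotype means in the same year correlated with r = 0.77. Nothing says that arrays stand for separate plots or extractions, so a p-value covers only the spread among these arrays, which may be technical. The number of arrays limits the precision. Named genes were all probe sets of the 3 genes, the 4 nearest genes by pattern for each, members of the BURP and metallothionein lists, and of the other lists up to 4 genes past the threshold; list genes that passed no test, the 2 regulators among the 15 opposed probe sets and the chromosomal neighbours were named after their values were seen. The alternatives were other scalings, gene means, no genotype term, a filter on dim probe sets, which all 4 probe sets passed, a trend in the prior variance, year as a block and leaving out each array. All fits between the years that left out an array had no genotype term, so differences between the genotypes enter them.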

Additional observations from a re-analysis of the deposited data

Results flagged for a closer look

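The difference between ago2-1 and WT had opposite signs in the years, beyond the SD over all probe sets in each, for the 3 genes and for 15 other genes of the lists, of similar pattern or named as regulators. The share of all probe sets that meet this rule is not given here, so nothing is read from the number. The contrast between the years was not tested, and for salT, BURP17 and MT1a it is the ground on which they were chosen. The difference of 2014 minus that of 2013 was 5.65 and 4.45 log2 for the probe sets of salT, 4.09 for BURP17 and 3.18 for MT1a. Of the list genes, NAC6 had 1.87, MT1B 1.09, NAAT1 (nicotianamine aminotransferase) 1.03 and YSL13 0.84. The DREB1A gene LOC4347620, taken from the opposed probe sets themselves, had 3.41. The genes found by their similar pattern had 4.39 (LOC4328512, WRKY71), 4.01 (LOC4326920), 3.98 (LOC4346187, CPK21), 3.63 (LOC4338474 and LOC4330829), 3.21 (LOC4326919), 2.70 (LOC4351194, RIXI), 2.50 (LOC4326324, GRXS5), 2.34 (LOC4332382) and 1.81 (LOC4348069), which follows from how they were found. The value of WRKY71 is that of 1 of its 2 probe sets.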

How the results depend on the processing

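The differences within each year kept their signs for all 3 genes under quantile, median and cyclic loess scaling and with the mean of a gene's probe sets, where salT lay at 2.56 in 2014. The fits between the years that left out an array had no genotype term. Each kept a WT array whose values chose the genes, so their signs are affected by the choice. The change between the years was negative for all 3 genes in every alternative, although BURP17 differed by 0.24 between the ago2-1 arrays. That of MT1a lost its call with cyclic loess (−2.69, adjusted p = 0.055), without a genotype term (−2.66, 0.068), among probe sets above the median (−2.66, 0.098) and without 3 of the 4 arrays in turn (−1.78 to −3.54 and adjusted p of 0.034 to 0.28 over all 4); salT and BURP17 passed in none. Among related genes, the calls between the years were 16 for metal genes, 4 for salt stress genes, 3 for dehydrin and LEA genes and 2 for BURP genes. On the deposited scale they were 26, 11, 3 and 4, among probe sets above the median, which tests fewer genes, 7, 1, 2 and 2, with no genotype term 14, 2, 2 and 1, without the 2013 WT array 7, 1, 3 and 1, and without the 2013 ago2-1 array 12, 3, 4 and 1. The call of MT1B was lost in 6 alternatives, those of the deposited scale, no genotype term, the filter on dim probe sets and without the 2013 WT array, the 2014 WT array or the 2014 ago2-1 array. Over all probe sets, 13338 were called between the years by limma, 46058 on the deposited scale (44735 higher, 1323 lower, against 6995 and 6343), 4971 among probe sets above the median, and 0 to 8295 without single arrays; the counts of 0 were without the 2014 WT array (12670 at an unadjusted p under 0.05) or the 2014 ago2-1 array (12507), with no genotype term. Between the genotypes 29 were called, 61 with year as the replicate block, 1 after quantile scaling, 19 among probe sets above the median, and 29 to 136 without single arrays. At a 1.5-fold limit 69 probe sets were opposed in place of 19. Of the nearest genes by pattern, 4 of 4 for salT and MT1a and 3 of 4 for BURP17 were shared with the deposited scale. With 1 array per genotype and year, the differences within a year have no replicate.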

Other observations

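The nearest measured gene on each side of salT, BURP17 and MT1a along the chromosome, an addition made after the data were seen, did not share their differences in size. The 6 neighbours differed between the ago2-1 and WT arrays by −0.54 to 0.63 log2 in 2013 and by −0.24 to 0.16 in 2014. The gene next to salT, LOC4326473, had its signs, with 9.30 log2 in ago2-1 against 9.84 in WT panicles in 2013, and 9.78 in ago2-1 against 9.66 in WT panicles in 2014. Of the neighbours of MT1a, LOC4351214 was lower on the ago2-1 arrays in both years (−0.46 and −0.16), while LOC4351211 hardly differed (−0.07 and −0.002). LOC4349890 on 1 side of BURP17 differed by −0.11 and −0.24.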
